A study of Mus musculus with 10 samples.

Results

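The results concern 10 genes of the surfactant-producing alveolar type II cell, namely Sftpc, Sftpb, Sftpa1, Sftpd, Napsa, Lamp3, Abca3, Slc34a2, Cxcl15 and Lyz2. They were found by gene symbol in a raw count table of 25277 genes, and all 10 were present and had enough counts to be tested. The table came from 10 RNA sequencing libraries of mouse lung, each made from about 500 cells described as premalignant, amplified by a modified SMART-Seq2 protocol, which copies whole transcripts and multiplies them by PCR. All animals had been infected for 12 wk with an adenovirus carrying Cre, the recombinase that removes a gene segment flanked by loxP sites (flox). The libraries differed in the alleles of APE1, the base excision repair endonuclease encoded by Apex1, and the study's title names DNA G-quadruplexes, a folded form of guanine-rich DNA, as the question behind that comparison. The control genotype, APE1 flox/+, carried 1 flox allele and had 4 libraries. APE1 flox/flox carried a flox allele on each chromosome and had 3 libraries, and APE1 flox/N211A paired a flox allele with the mutant allele N211A and had 3 libraries. The promoter that drove Cre, the cells it reached, any further allele, the age of the animals and whether replicates were separate animals are not stated, so p-values measure the spread between these samples.

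Alveolar type II cells make pulmonary surfactant, a film of phospholipid and protein that lowers surface tension in the alveolus. Its lipids and its hydrophobic proteins are packed into lamellar bodies, lysosome-related organelles that empty into the airspace, while the hydrophilic collectins of surfactant bind microbes. In mice, lung adenocarcinomas induced through inhaled Cre are known to arise from these cells among others.

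Total counts lay between 8955368 and 53678659 per library, and the deepest was flox/flox replicate 3. Counts of 0 were found for 34.2% of the 13464 tested genes in flox/flox replicate 2 and for 2.82% to 16.6% in each of the other libraries, and flox/flox replicates 2 and 3 had stood apart in earlier results of these data. The targeted gene Apex1 stood at 4.12, 15.9, 35.9 and 54.1 CPM (read counts scaled to a common total by TMM factors) in flox/+ replicates 1 to 4, at 6.02, 0 and 0.573 in flox/flox replicates 1 to 3, and at 7.86, 12.9 and 6.45 in flox/N211A. Flox/flox replicate 1 thus lay above the lowest flox/+ library, and Apex1 did not separate the 2 genotypes (log2 fold change -3.65, SE 1.75, edgeR adjusted p = 0.353). The gene Pip4p1 overlaps Apex1 on the opposite strand and is in the count table, and the strand setting of the counting is not stated. Xist was above the Y-linked genes in 2 of 4 flox/+, 2 of 3 flox/flox and 3 of 3 flox/N211A libraries, so sex was not balanced.

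All 10 genes were detected in every library, and Sftpc was among the 4 genes with the most counts in each. Together the 10 took 13.0%, 6.11%, 18.7% and 14.5% of all counts in flox/+ replicates 1 to 4, 3.47%, 3.47% and 2.12% in flox/flox, and 6.81%, 5.63% and 6.47% in flox/N211A. No flox/flox or flox/N211A library held as large a share as flox/+ replicates 1, 3 and 4, and flox/+ replicate 2 lay within the range of flox/N211A. In a library of pooled cells, fewer alveolar type II cells and less of their RNA per cell cannot be told apart.

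Sequence upstream of the genes was examined for letters known from alveolar type II promoters and for the G-quadruplex pattern. RefSeq promoters of build GRCm38.p6 were found for 7 of the 10 genes, and the 250 bases before the annotated start were searched on both strands. The core of the NKX2-1 site, CTCAAG, is shown for the surfactant protein genes that hold it, because NKX2-1 is the lineage factor of these cells and binds surfactant promoters. In capitals below are its matches in Sftpb (chr6:72304360-72304609, plus strand), from -100 to -95 and from -15 to -10, and in Sftpa1 (chr14:41131538-41131787, plus strand), from -166 to -161, counted from the start.
Sftpb: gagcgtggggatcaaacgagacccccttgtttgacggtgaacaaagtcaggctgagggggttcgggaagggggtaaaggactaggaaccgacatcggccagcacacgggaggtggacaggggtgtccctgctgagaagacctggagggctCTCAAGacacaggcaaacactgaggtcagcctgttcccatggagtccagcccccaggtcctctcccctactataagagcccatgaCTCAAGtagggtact
Sftpa1: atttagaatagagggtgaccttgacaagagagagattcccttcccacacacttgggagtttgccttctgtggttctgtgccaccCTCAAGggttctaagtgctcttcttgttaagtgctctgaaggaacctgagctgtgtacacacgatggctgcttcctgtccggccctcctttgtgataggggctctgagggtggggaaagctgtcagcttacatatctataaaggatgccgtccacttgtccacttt
Of 32851 RefSeq windows of this length, 13.3% held CTCAAG, and 2 of the 7 windows here did. The FOXA core TGTTTNC was in 17.8% of all windows and in those of Sftpb and Lamp3, and its 2 matches in Lamp3 include 1 that overlaps the G-quadruplex match by 2 bases. The C/EBP core TTGCNNAA was in 9.56% of all windows and in that of Slc34a2, from -48 to -41, where it reads the same on both strands.

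The G-quadruplex pattern, 4 runs of at least 3 guanines with 1 to 7 bases between runs, was in 16.7% of all windows. It was found in Slc34a2 (chr5:53049103-53049352, plus strand), from -234 to -204, and, as runs of cytosine on the printed strand, in Lamp3 (chr16:19706366-19706615, minus strand), from -157 to -132. Both are shown with the pattern in capitals because the study asked about such sequences.
Slc34a2: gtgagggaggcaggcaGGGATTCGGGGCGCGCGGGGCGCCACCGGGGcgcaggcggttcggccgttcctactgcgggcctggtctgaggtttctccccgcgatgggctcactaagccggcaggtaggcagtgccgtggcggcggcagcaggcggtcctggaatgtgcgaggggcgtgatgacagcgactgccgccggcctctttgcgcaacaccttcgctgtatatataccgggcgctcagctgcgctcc
Lamp3: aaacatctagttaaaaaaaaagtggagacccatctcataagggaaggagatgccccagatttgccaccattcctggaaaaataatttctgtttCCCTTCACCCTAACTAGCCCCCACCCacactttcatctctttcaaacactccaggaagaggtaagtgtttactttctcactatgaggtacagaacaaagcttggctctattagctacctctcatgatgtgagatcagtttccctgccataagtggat
The other 5 windows, those of Sftpb, Sftpa1, Abca3, Cxcl15 and Lyz2, held no such run of letters. The annotated start used for Slc34a2 lies inside the gene as GENCODE M21 draws it (chr5:53038081-53071664), so it is not the outermost start there. A match is a description of letters, and nothing measured here bears on whether the structure forms.

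Sftpc encodes surfactant protein C, a hydrophobic peptide made almost only by alveolar type II cells, and was the most abundant of the 10. The gene lies on chromosome 14 (GRCm38, 70520949 to 70524081). It stood at 86301, 33544, 145743 and 106124 CPM in flox/+ replicates 1 to 4, at 21068, 17965 and 11531 CPM in flox/flox, and at 34061, 36905 and 37466 CPM in flox/N211A. All flox/flox libraries lay below all others, and the flox/N211A libraries lay close together, just above the lowest flox/+ library and below its other 3. The flox/flox mean of 16855 ± 4865 CPM (SD, n = 3) was 18.1% of the flox/+ mean of 92928 ± 46669 (SD, n = 4), a log2 fold change of -2.46 (SE 0.56, unadjusted p = 4.82e-04) that did not pass the threshold (edgeR adjusted p = 0.154). Without flox/flox replicate 1 it was -2.65 and passed (edgeR adjusted p = 0.0405), and DESeq2 called it with all libraries (adjusted p = 1.38e-04). The flox/N211A mean of 36144 ± 1825 CPM (SD, n = 3) was 38.9% of that of flox/+ (log2 fold change -1.36, SE 0.53, edgeR adjusted p = 1.00). It was 214% of that of flox/flox (log2 fold change 1.10, SE 0.56, edgeR adjusted p = 0.442), without overlap.

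Sftpb, on chromosome 6 (72304610 to 72314371), encodes surfactant protein B, the other hydrophobic protein, without which lamellar bodies do not mature. It stood at 1761, 584, 907 and 990 CPM in flox/+, at 1275, 808 and 4793 CPM in flox/flox, and at 856, 636 and 1809 CPM in flox/N211A. The 3 genotypes overlapped, and the highest value belonged to flox/flox replicate 3, the library in which Sftpc was lowest. Of the 10 genes, Sftpb had the only log2 fold change above 0 in flox/flox against flox/+, at 1.11 (SE 0.60, edgeR adjusted p = 0.405). Without flox/flox replicate 3 that value was 9.33e-04, so 1 library set it.

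Sftpa1 and Sftpd, both on chromosome 14 (41131782 to 41136452 and 41172214 to 41185149), encode the collectins surfactant proteins A and D, which bind microbial sugars and take part in surfactant turnover. The targeted gene Apex1 lies on the same chromosome (50924968 to 50927139), as does Sftpc. Whether DNA linked to the Apex1 alleles differed between the genotypes was not tested. Sftpa1 stood at 17727, 10830, 30054 and 20357 CPM in flox/+, at 6276, 10604 and 4854 CPM in flox/flox, and at 9599, 11069 and 12064 CPM in flox/N211A. The flox/flox libraries lay below those of flox/+, but the gap between the nearest libraries was small, and flox/N211A overlapped both. Its log2 fold changes were -1.45 (SE 0.48, edgeR adjusted p = 0.268) in flox/flox and -0.86 (SE 0.47, edgeR adjusted p = 1.00) in flox/N211A, both against flox/+. DESeq2 called the former (adjusted p = 0.0350).

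Sftpd stood at 1909, 1129, 2799 and 1606 CPM in flox/+, at 1338, 926 and 922 CPM in flox/flox, and at 1176, 1062 and 1549 CPM in flox/N211A. All 3 genotypes overlapped, and Sftpd had the smallest spread of the 10 genes, a biological coefficient of variation of 0.47. Log2 fold changes of Sftpd were -0.81 (SE 0.42, edgeR adjusted p = 0.392) in flox/flox and -0.56 (SE 0.42, edgeR adjusted p = 1.00) in flox/N211A, both against flox/+.

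Napsa, on chromosome 7 (44572380 to 44586862), encodes napsin A, an aspartic protease that trims the precursor of surfactant protein B. It stood at 707, 314, 1439 and 477 CPM in flox/+, at 171, 101 and 338 CPM in flox/flox, and at 332, 268 and 323 CPM in flox/N211A. Flox/flox replicate 3 and 2 of the 3 flox/N211A libraries lay just above the lowest flox/+ library, and the others below it. The log2 fold change against flox/+ was -1.85 (SE 0.57, edgeR adjusted p = 0.245) in flox/flox, which DESeq2 called (adjusted p = 0.00767), and -1.25 (SE 0.56, edgeR adjusted p = 1.00) in flox/N211A.

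Lamp3 and Abca3 were both lowest in flox/flox replicates 2 and 3. Lamp3, on chromosome 16 (19653378 to 19706375), encodes a membrane glycoprotein of lysosomes and lamellar bodies, also known as DC-LAMP and found in mature dendritic cells. It stood at 606, 302, 374 and 358 CPM in flox/+, at 388, 81.3 and 0.598 CPM in flox/flox, and at 434, 324 and 352 CPM in flox/N211A. Flox/flox replicate 1 lay within the flox/+ range, replicate 2 below it, and replicate 3 held 24 counts in the deepest library of all. Its log2 fold change against flox/+ was -1.39 (SE 1.03, edgeR adjusted p = 0.564) in flox/flox, and Lamp3 had the widest spread of the 10 genes, a biological coefficient of variation of 0.88. Without flox/flox replicates 2 and 3 the log2 fold change was -0.08. Only replicate 1 of that genotype was then left, so this value restates its level and is not a test.

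Abca3, on chromosome 17 (24351950 to 24410201), encodes the transporter that moves phospholipid into lamellar bodies. It stood at 282, 204, 208 and 369 CPM in flox/+, at 283, 105 and 17.8 CPM in flox/flox, and at 212, 293 and 244 CPM in flox/N211A. As for Lamp3, flox/flox replicate 1 was at the level of the controls while replicates 2 and 3 were below it. The log2 fold change of flox/flox against flox/+ was -0.97 (SE 0.66, edgeR adjusted p = 0.518). With replicates 2 and 3 left out it was 0.09, which restates the level of replicate 1, the only flox/flox library then left. The gene D330041H03Rik overlaps Abca3 on the opposite strand and is in the count table, and whether strand was used in counting is not stated in the labels.

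Slc34a2, on chromosome 5 (53038081 to 53071664), encodes a sodium-phosphate cotransporter that takes up phosphate freed from surfactant phospholipid. It stood at 1316, 670, 900 and 857 CPM in flox/+, at 575, 43.7 and 151 CPM in flox/flox, and at 821, 609 and 891 CPM in flox/N211A. Each flox/flox library lay below each library of the other genotypes, replicate 1 by little. Log2 fold changes were -1.87 (SE 0.66, edgeR adjusted p = 0.283) in flox/flox against flox/+ and 1.59 (SE 0.68, edgeR adjusted p = 0.393) in flox/N211A against flox/flox. Without flox/flox replicate 1 these were -3.25 (edgeR adjusted p = 0.0210) and 2.97 (edgeR adjusted p = 0.0348), and both passed. With replicate 1 as the only flox/flox library they were -0.70 and 0.44. Each shift follows from the levels of the libraries left out.

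Cxcl15, also on chromosome 5 (90794534 to 90803067), encodes lungkine, a mouse chemokine secreted into the airways that attracts neutrophils. It stood at 7967, 2547, 3397 and 2021 CPM in flox/+, at 1673, 207 and 295 CPM in flox/flox, and at 4119, 2333 and 3032 CPM in flox/N211A. Flox/flox was again the lowest genotype in all of its libraries, with replicate 1 close to the lowest control. Log2 fold changes were -2.46 (SE 0.72, edgeR adjusted p = 0.237) in flox/flox against flox/+ and 2.12 (SE 0.74, edgeR adjusted p = 0.386) in flox/N211A against flox/flox. Without flox/flox replicate 1 these were -3.97 (edgeR adjusted p = 0.0171) and 3.64 (edgeR adjusted p = 0.0246), and both passed. With replicate 1 as the only flox/flox library they were -1.25 and 0.93. Here too each shift follows from the levels of the libraries left out. With all libraries DESeq2 called Cxcl15 in flox/flox against flox/+ (adjusted p = 0.0154). Against flox/+, Cxcl15 in flox/N211A had a log2 fold change of -0.33 (SE 0.67), which turned to 0.25 without flox/+ replicate 1.

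Lyz2, on chromosome 10 (117277331 to 117282321), encodes lysozyme M, a bacterial cell wall hydrolase made by alveolar type II cells and by macrophages and neutrophils. It stood at 10330, 5837, 21711 and 9067 CPM in flox/+, at 1770, 2082 and 5460 CPM in flox/flox, and at 3463, 4067 and 5701 CPM in flox/N211A. Every control library lay above every library of the other genotypes, by little between flox/+ replicate 2 and the highest of the others. The log2 fold change against flox/+ was -1.92 (SE 0.56, edgeR adjusted p = 0.237) in flox/flox, which DESeq2 called (adjusted p = 0.00228), and -1.41 (SE 0.55, edgeR adjusted p = 1.00) in flox/N211A.

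The neighbouring paralog Lyz1 shares sequence with Lyz2, since 15.4% of the 50-base windows of Lyz2 exons also occur in Lyz1, and how the authors counted reads that fit both is not stated in the labels. The mean of Lyz1 in flox/+ was 731 ± 490 CPM (SD, n = 4), in flox/flox 210.97 ± 176 CPM (SD, n = 3) and in flox/N211A 288 ± 91.9 CPM (SD, n = 3), with a log2 fold change of -1.79 (SE 0.81, edgeR adjusted p = 0.327) in flox/flox against flox/+. Counts of Lyz2 were 12.8, 23.6, 15.7 and 18.6 times those of Lyz1 in flox/+, 6.52, 169 and 15.6 times in flox/flox, and 11.1, 11.1 and 30.6 times in flox/N211A. The ratio was between 11.1 and 30.6 in 8 libraries, lower in flox/flox replicate 1 and far above the rest in replicate 2, which held 142 counts of Lyz1.

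**Figure D1:**
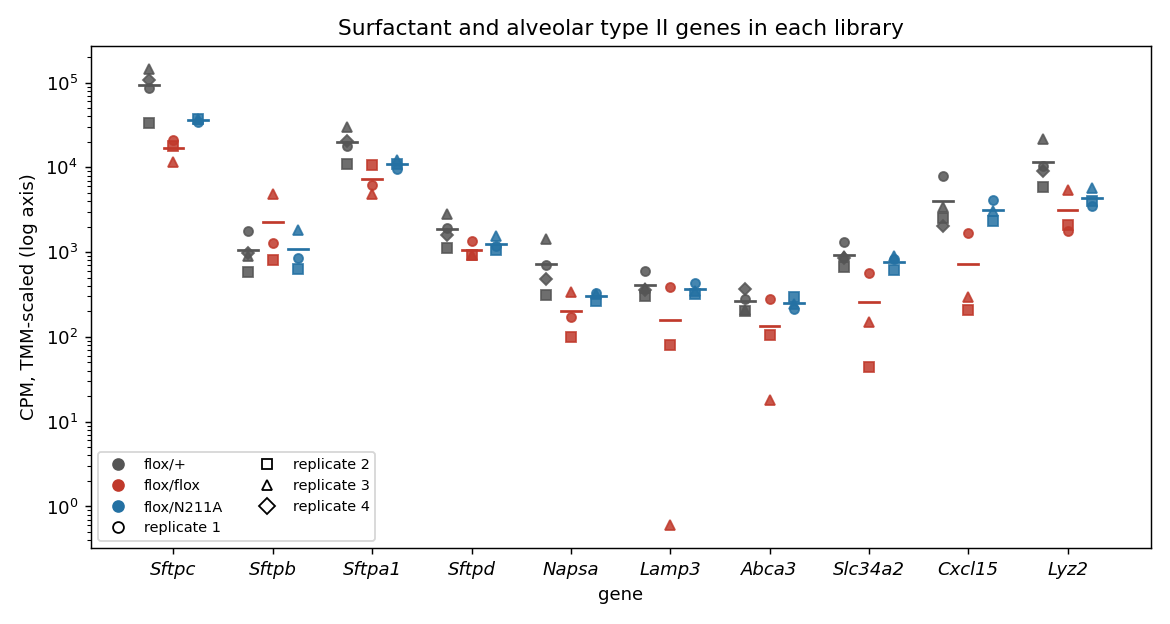
The level of each of the 10 genes in every library, in CPM scaled by TMM factors on a log axis, with the genotype as colour, the replicate number as symbol and a bar at the mean of the genotype (n = 4 flox/+, n = 3 flox/flox, n = 3 flox/N211A). All flox/flox libraries lie below all flox/+ libraries for Sftpc, Sftpa1, Slc34a2, Cxcl15 and Lyz2, and flox/flox replicate 3 has 0.598 CPM of Lamp3 and 4793 CPM of Sftpb.

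As a group, 9 of the 10 genes had a log2 fold change below 0 in flox/flox against flox/+, where 48.7% of all genes tested did, and Sftpb lay above 0, as did 51.3%. None passed an adjusted p under 0.05, as none of the 13464 genes did (0.00%). Below an unadjusted p of 0.05, 6 of the 10 were lower (Sftpc, Sftpa1, Napsa, Slc34a2, Cxcl15 and Lyz2), beside 8.70% of all genes, and 0 were higher, beside 5.73%. The biological coefficient of variation was 0.47 to 0.88 in the 10 genes and 1.17 at the median of all genes tested. The shares of all genes are therefore not matched for spread. In 5 of the 10 the flox/flox libraries lay wholly below those of flox/+, beside 7.19% of all genes, and in 0 wholly above, beside 3.44%. The median log2 fold change was -1.65 for the 10 genes and 0.056 for all genes. As differences of mean log2 CPM the medians were -1.87 and -0.62, so the distance from all genes depends on the measure. DESeq2 called 1027 of 13464 genes, and 5 of the 10 (Sftpc, Sftpa1, Napsa, Cxcl15 and Lyz2). Without a low-count filter edgeR called 196 of 20349 genes, and 5 of the 10, with Slc34a2 in place of Napsa. With flox/flox replicates 2 and 3 left out, where the remaining flox/flox library was given the spread of the others, the median was -0.98, beside -0.61 for all genes, with 0 of the 10 and 49 genes in all called.

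In flox/N211A against flox/+, 9 of the 10 genes were again below 0, where 52.3% of all genes were, and Sftpb was above it, as were 47.7%, with a median of -0.45 against -0.045 for all genes. Sftpc, Napsa and Lyz2 were lower at an unadjusted p under 0.05, which 0.706% of all genes were, 0 were higher at that p, beside 0.728%, and no gene of the table passed the adjusted threshold (0.00%). Lyz2 alone of the 10 did not overlap, beside 2.64% of all genes lower without overlap, and 0 of the 10 were higher without overlap, beside 3.51%. Lamp3, Abca3, Slc34a2, Cxcl15 and Sftpb had log2 fold changes between -0.33 and 0.05. Both comparisons share the flox/+ libraries, so they are not independent.

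Set directly against flox/flox, flox/N211A was above 0 in 9 of the 10 genes, where 47.1% of all genes were, and below 0 in Sftpb, as were 52.9%, with a median of 0.74 against -0.11 for all genes. As differences of mean log2 CPM these medians were 0.96 and 0.85, which are nearly the same. Sftpc, Slc34a2 and Cxcl15 were higher without overlap, beside 13.0% of all genes, and the last 2 had an unadjusted p under 0.05, beside 7.63%. None of the 10 was lower at that p, beside 4.42%, or lower without overlap, beside 5.61%. Of the other 7, Sftpb lay at -1.06 (SE 0.65) and the rest between 0.25 and 1.24. None of the 10 passed the adjusted threshold, as no gene of the table did (0.00%).

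**Figure D2:**
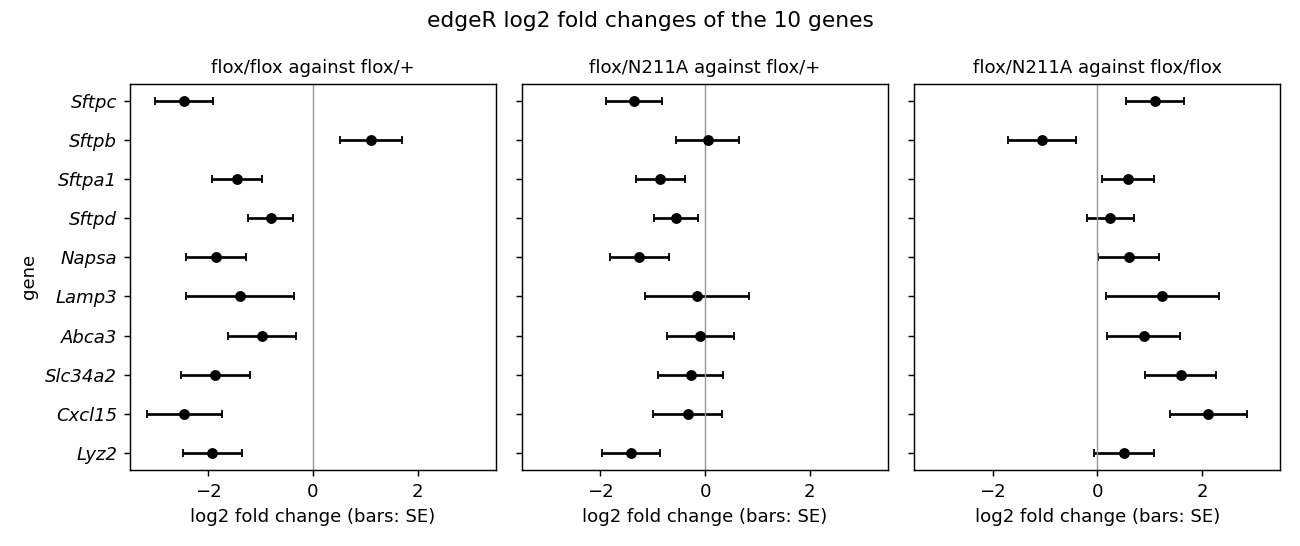
The edgeR log2 fold change of each gene in the 3 comparisons, with bars of 1 SE, from 1 fit to all 10 libraries. Apart from Sftpb, the points of flox/flox against flox/+ lie between -2.46 and -0.81, and none passed an adjusted p of 0.05.

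The order of the 10 genes was compared per length, as CPM per kb of exon. In flox/+ it ran from Sftpc at 89872 ± 45134 (SD, n = 4) through Lyz2 at 8918, Sftpa1 at 6903, Cxcl15 at 1873, Sftpd at 770, Sftpb at 539, Napsa at 276, Slc34a2 at 187 and Lamp3 at 122 to Abca3 at 28.3. Only Sftpc and Lyz2, Sftpa1 and Cxcl15, and Lamp3 and Abca3 were neighbours in this order whose libraries did not overlap. In flox/flox the order began with Sftpc at 16301 ± 4705 (SD, n = 3), Sftpa1 at 2533, Lyz2 at 2359 and Sftpb at 1165, and only the first neighbours did not overlap. In flox/N211A it began with Sftpc at 34956 ± 1765 (SD, n = 3), Sftpa1 at 3815, Lyz2 at 3351 and Cxcl15 at 1486. Abca3 was last in all 3 genotypes, at 14.4 in flox/flox and 26.6 in flox/N211A. With the longest transcript as the length, Napsa in flox/+ was 471 in place of 276, and the order changed in flox/N211A only, where Napsa at 197 came before Slc34a2 at 185.

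The genes did not keep a fixed proportion to Sftpc. A ratio within a library does not depend on the scaling of that library, and its SD over the 10 libraries on the log2 scale measured how closely a gene followed Sftpc. Sftpa1 followed it most closely, with an SD of 0.50, then Napsa with 0.71, Lyz2 with 0.72 and Sftpd with 0.76. Abca3 with 1.02, Slc34a2 with 1.09 and Cxcl15 with 1.17 came next, and Sftpb with 1.69 and Lamp3 with 2.33 last. The median over the 9 genes was 1.02, beside 1.53 over 3251 other genes of at least 50 CPM. Without flox/flox replicates 2 and 3, Lamp3 had an SD of 0.94 and Sftpb 1.10, and Sftpa1 still had the smallest at 0.32.

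Relative to Sftpc, Sftpd was higher in flox/flox than in the other genotypes without overlap, and Sftpa1 was not. Sftpc itself was lowest in flox/flox without overlap, so a ratio to it is higher there for any gene that is lowered less. The level of Sftpd overlapped between all genotypes. The share of all genes whose ratio to Sftpc separates in the same way was not counted. Counts of Sftpd were 2.21%, 3.37%, 1.92% and 1.51% of those of Sftpc in flox/+, 6.35%, 5.15% and 7.998% in flox/flox, and 3.45%, 2.88% and 4.14% in flox/N211A. Each flox/flox library lay above each library of the other genotypes. Counts of Sftpa1 were 20.5%, 32.3%, 20.6% and 19.2% of those of Sftpc in flox/+, 29.8%, 59.0% and 42.1% in flox/flox, and 28.2%, 30.0% and 32.2% in flox/N211A. Here flox/+ replicate 2, the control with the least Sftpc, lay among the other genotypes.

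Sftpb reached 41.6% of the Sftpc counts in flox/flox replicate 3, beside 6.05% and 4.50% in the other flox/flox libraries, 0.622% to 2.04% in flox/+ and 1.72% to 4.83% in flox/N211A. In the same library Lyz2 reached 47.4% of Sftpc, beside 8.40% to 17.4% in the other 9, and Lamp3 0.00518%, beside 0.256% to 1.84%. Of the summed CPM of the 10 genes, Sftpc made up 59.9% to 74.6% in flox/+, 59.1% to 64.1% in flox/N211A, and 60.5%, 54.6% and 40.7% in flox/flox replicates 1 to 3. These ratios were described and not tested.

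**Figure D3:**
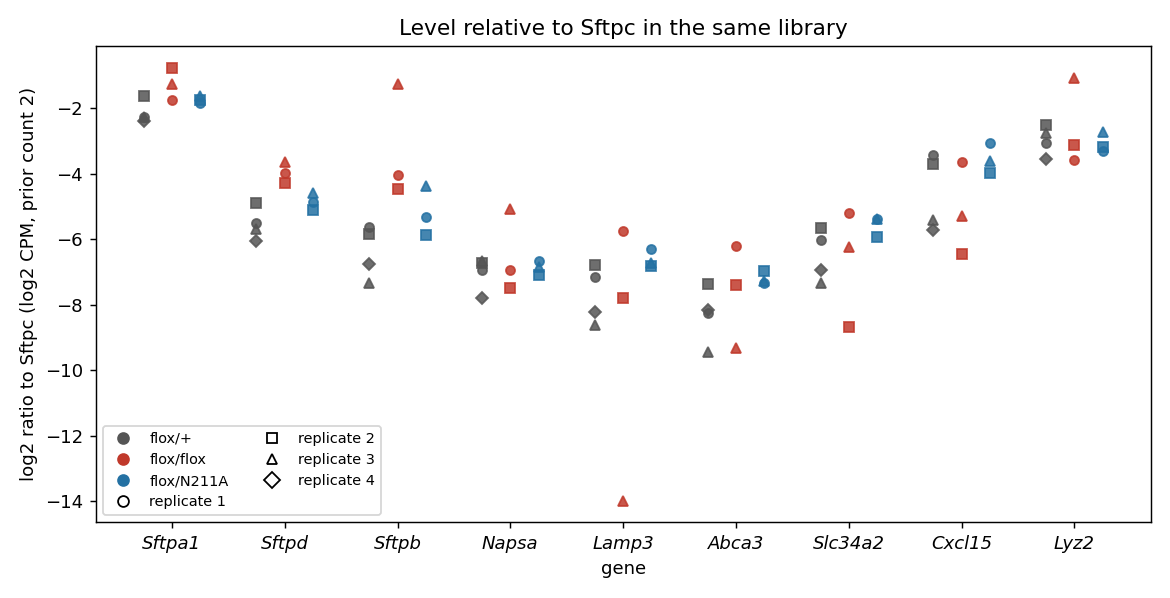
The log2 ratio of 9 genes to Sftpc in the same library (log2 CPM with a prior count of 2), with the genotype as colour and the replicate number as symbol. Sftpa1 is the tightest column (SD 0.50 over 10 libraries) and Lamp3 the widest (SD 2.33), which rests on flox/flox replicate 3.

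Of 3251 genes outside the group, those that followed Sftpc most closely by this SD included Npc2 (0.44), which encodes a cholesterol-binding protein of late endosomes and lysosomes, Idh3b (0.60), Chil1 (0.64) and Gspt1 (0.66). Npc2 stood at 2170, 1060, 2367 and 3399 CPM in flox/+, at 451, 604 and 565 CPM in flox/flox and at 821, 1237 and 1223 CPM in flox/N211A. Its flox/flox libraries were the lowest, as for Sftpc. Closest to the mean log2 CPM of all 10 genes were Gspt1 (0.33), Usp8 (0.39), Rps19 (0.41), Rps27a (0.42) and Ybx3 (0.44), which encode a translation release factor, a deubiquitinase, a pair of ribosomal proteins and a cold shock protein. Likeness over 10 libraries that differ in depth and quality is a description.

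Other genes of surfactant making were read from a list of 24 genes of surfactant maturation, lipid synthesis and lamellar bodies, of which 23 were tested. In flox/flox against flox/+, 9 lay above 0 and 14 below, where 48.7% of all genes lay below, with a median of -0.27 beside 0.056 for all genes. As differences of mean log2 CPM the medians were -0.44 and -0.62. At an unadjusted p under 0.05, 4 of the 23 were lower and 1 higher, beside 8.70% and 5.73% of all genes, and 0 were called. In flox/N211A against flox/+ 6 lay above 0 and 17 below, where 52.3% of all genes lay below, with a median of -0.33 beside -0.045 for all genes. At that p 2 were lower and 0 higher, beside 0.706% and 0.728% of all genes, and 0 were called. Its most abundant genes were Ctsh, a cathepsin that processes surfactant protein B, Scd1, a desaturase of fatty acid synthesis, Prdx6, a peroxiredoxin with phospholipase activity, and Atp8a1, a phospholipid flippase.

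The mean of Scd1 in flox/+ was 1035 ± 594 CPM (SD, n = 4), in flox/flox 222 ± 162 CPM (SD, n = 3) and in flox/N211A 807 ± 181 CPM (SD, n = 3). Flox/flox lay below both other genotypes without overlap, with a log2 fold change of -2.22 (SE 0.65, edgeR adjusted p = 0.235) against flox/+. Ctsh was lower without overlap in flox/N211A than in flox/+, at 370 ± 31.3 CPM (SD, n = 3) against 1295 ± 929 (SD, n = 4), a log2 fold change of -1.81 (SE 0.70, edgeR adjusted p = 1.00). In flox/flox, Ctsh overlapped flox/+ at 1036 ± 766 CPM (SD, n = 3). Prdx6 and Atp8a1 overlapped between flox/flox and flox/+, with log2 fold changes of 0.55 (SE 0.42) and 0.25 (SE 0.54).

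Transcription factors of alveolar type II cells, a list of 13 that were all tested, were split in direction. In flox/flox against flox/+, 5 lay above 0 and 8 below, where 48.7% of all genes lay below, with a median of -0.24 beside 0.056 for all genes. As differences of mean log2 CPM the medians were -1.38 and -0.62. At an unadjusted p under 0.05, 1 was higher and 1 lower, near the 5.73% and 8.70% of all genes, and 0 were called. In flox/N211A against flox/+, 8 lay above 0 and 5 below, where 47.7% of all genes lay above, and 0 reached that p. In flox/N211A against flox/flox, 9 lay above 0 and 4 below, where 47.1% of all genes lay above. There the medians of differences of mean log2 CPM were 1.64 for the list and 0.85 for all genes. Nkx2-1, the lineage factor, had means of 137 ± 51.9 CPM in flox/+ (SD, n = 4), of 84.6 ± 73.6 CPM in flox/flox (SD, n = 3) and of 156 ± 27.2 CPM in flox/N211A (SD, n = 3), and the genotypes overlapped (log2 fold change -0.70, SE 0.70, edgeR adjusted p = 0.698 in flox/flox against flox/+). Etv5, Foxa2 and Nfib, also among its 4 most abundant, had log2 fold changes of -0.24 (SE 0.48), -0.11 (SE 0.57) and 0.26 (SE 0.71) in that comparison.

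Of 18 other alveolar type II markers, all tested, 14 lay below 0 in flox/flox against flox/+, where 48.7% of all genes did, with a median of -1.51 against 0.056 for all genes. At an unadjusted p under 0.05, 6 of the 18 were lower and 1 higher, beside 8.70% and 5.73% of all genes, and 0 were called. As differences of mean log2 CPM the medians were -2.37 and -0.62. In flox/N211A against flox/+, 16 lay below 0, where 52.3% of all genes did, with a median of -0.68 beside -0.045. Against flox/flox, 13 lay above 0, where 47.1% of all genes did, with a median of 1.38 beside -0.11. As differences of mean log2 CPM these medians were -0.49 beside 0.15, and 2.16 beside 0.85. At an unadjusted p under 0.05, 0 were higher or lower against flox/+. Against flox/flox, 3 were higher and 1 lower at that p, beside 7.63% and 4.42% of all genes. Chil1, a chitinase-like lectin, had means of 1611 ± 1176 CPM in flox/+ (SD, n = 4), of 228 ± 194 CPM in flox/flox (SD, n = 3) and of 717 ± 60.9 CPM in flox/N211A (SD, n = 3). Its log2 fold change in flox/flox against flox/+ was -2.82 (SE 0.69, edgeR adjusted p = 0.181), with overlap.

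Not all abundant markers of that list lay low. Nupr1, a stress-response regulator of chromatin, stood at 1855 ± 894 CPM (SD, n = 4) in flox/+ and 3291 ± 3903 (SD, n = 3) in flox/flox. Lgals3, a galectin that macrophages also make, stood at 883 ± 345 CPM (SD, n = 4) and 1096 ± 803 (SD, n = 3). Cd74, the invariant chain of antigen presentation, stood at 243 ± 177 CPM (SD, n = 4) and 1558 ± 2367 (SD, n = 3), where 1 library at 4291 CPM set the mean, with a log2 fold change of 2.68 (SE 0.95, edgeR adjusted p = 0.282).

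Markers of other lung cells were read beside these results, and their part in them was not tested. All 10 club cell markers were detected in each genotype, and their summed level was 31796 to 162648 CPM in flox/+, 57757 to 211039 CPM in flox/flox and 118300 to 254475 CPM in flox/N211A, led by the secretoglobin Scgb1a1 and by Cbr2. All 10 ciliated cell markers were detected, at a sum of 999.67 to 4471 CPM in flox/+, 4110 to 9053 CPM in flox/flox and 2146 to 2833 CPM in flox/N211A, led by Tppp3 and Dynlrb2. The sums of ciliated markers were highest in flox/flox replicates 2 and 3, at 9053 and 8933 CPM.

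The 10 alveolar type I markers, led by Emp2 and Aqp5, summed to 994 to 2110 CPM in flox/+, 1254 to 1730 CPM in flox/flox and 999 to 1489 CPM in flox/N211A, and overlapped. The 8 fibroblast markers, led by Gsn and Inmt, summed to 76.1 to 162 CPM in flox/+, 35.4 to 1565 CPM in flox/flox and 173 to 800 CPM in flox/N211A. Gsn made up most of these sums. Its means were 83.4, 966 and 382 CPM in flox/+, flox/flox and flox/N211A, beside mean sums of 112, 1013 and 589 CPM. The collagen genes Col1a1 and Col1a2 had means of 8.64 and 0.0793 CPM in flox/flox and of 0.898 and 0.0187 CPM in flox/+. The SD of Col1a1 in flox/flox was 14.9 CPM (n = 3). In flox/N211A their means were 4.31 and 10.1 CPM. Col1a2 was higher there than in flox/+ without overlap, as 3.51% of all genes were. Inmt and Mgp had means of 20.1 and 2.64 CPM in flox/+, of 25.8 and 12.7 CPM in flox/flox and of 90.6 and 67.2 CPM in flox/N211A.

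The lists of 3 blood cell types bear on Lyz2 and Lamp3, which blood cells also express. Of 14 macrophage and monocyte markers, 11 were detected in flox/+, 10 in flox/flox and 12 in flox/N211A. They summed to 340 to 1573 CPM, 191 to 549 CPM and 312 to 463 CPM, led by Lyz1 and Cd14. Lyz1 made up most of the mean sum in each genotype. Its means were 731, 210.97 and 288 CPM in flox/+, flox/flox and flox/N211A, beside mean sums of 864, 356 and 382 CPM. Since Lyz1 shares sequence with Lyz2, this sum cannot show macrophage content independently of Lyz2. Marco, Siglecf and C1qa, which define alveolar or tissue macrophages, were at 0 in every flox/+ and flox/flox library. In flox/N211A only C1qa of these was at 0, and Marco and Siglecf were detected. Adgre1, another macrophage marker of the list, was detected in flox/+ and was at 0 in flox/flox and flox/N211A. Of the same list, Cd68, a lysosomal protein of macrophages, and Chil3, a chitinase-like protein of alveolar macrophages, are named after their values were seen, because they were lower in flox/flox as Lyz2 was. Cd68 stood at 7.67 ± 11.2 CPM (SD, n = 4) in flox/+, at 0.00830 ± 0.0144 CPM (SD, n = 3) in flox/flox and at 7.73 ± 6.59 CPM (SD, n = 3) in flox/N211A, with an edgeR unadjusted p of 0.0117 (adjusted p = 0.281) in flox/flox against flox/+. Chil3 stood at 7.79 ± 8.10 CPM (SD, n = 4) in flox/+, at 0.0166 ± 0.0288 CPM (SD, n = 3) in flox/flox and at 8.59 ± 14.3 CPM (SD, n = 3) in flox/N211A, with an edgeR unadjusted p of 0.0172 (adjusted p = 0.297). Both genes overlapped between flox/flox and flox/+. Of all genes tested, 8.70% were lower in that comparison at an unadjusted p under 0.05. Since Cd68 and Chil3 were picked by their values, their p-values cannot serve as a test. The other tested genes of the list were split in that comparison. Csf1r, Mpeg1 and Cd14 had log2 fold changes above 0, at 2.45 (SE 2.40), 1.71 (SE 1.81) and 0.26 (SE 0.75). Those of Mrc1, Ctss, Lyz1 and Fcer1g lay below 0. The 6 neutrophil markers, led by S100a8 and S100a9, summed to 0.199 to 337 CPM in flox/+, 0.693 to 76.4 CPM in flox/flox and 10.8 to 206 CPM in flox/N211A.

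The 6 dendritic cell markers, led by Zbtb46 and Xcr1, summed to 0.132 to 17.4 CPM in flox/+, 0.0498 to 0.0941 CPM in flox/flox and 0.24 to 3.22 CPM in flox/N211A, with Ccr7 at 0 in flox/+ and flox/flox. Lymphocyte markers (6 genes, led by Cd79a and Ptprc) summed to at most 16.3, 40.6 and 9.88 CPM in a library of the 3 genotypes, and endothelial markers (6 genes, led by Kdr and Ramp2) to at most 55.9, 91.0 and 143 CPM.

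**Figure D4:**
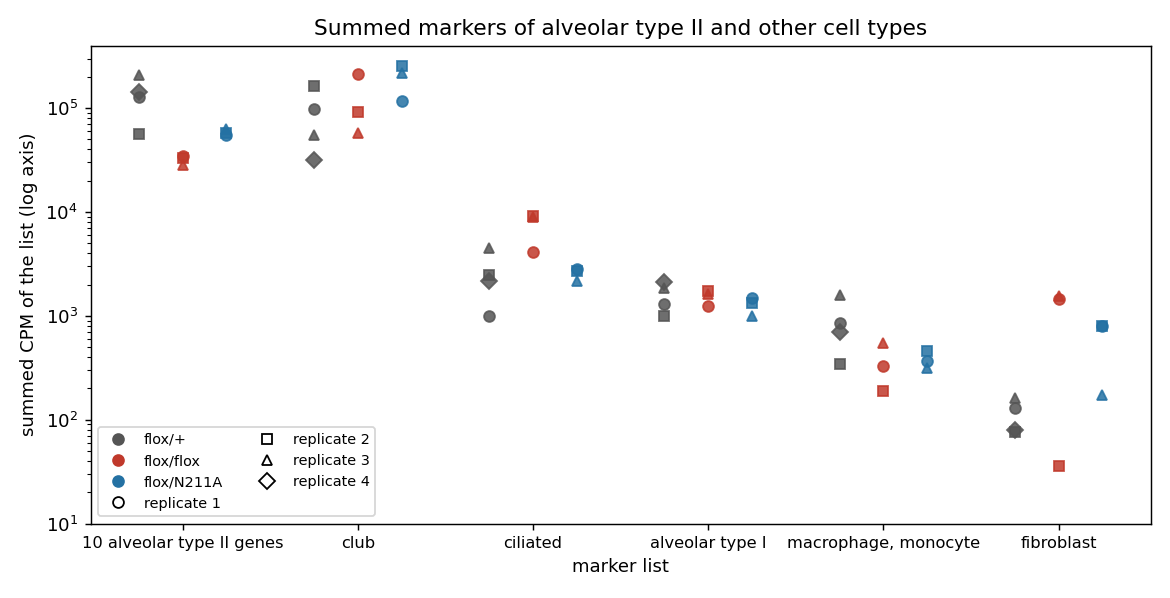
The summed CPM of the 10 alveolar type II genes and of the marker lists of 5 other cell types in every library, on a log axis, with the genotype as colour and the replicate number as symbol. The sums of the 10 genes are 28362 to 34818 CPM in flox/flox, 55076 to 63430 in flox/N211A and 55962 to 207533 in flox/+, while the ciliated sums of flox/flox replicates 2 and 3 are 9053 and 8933 CPM.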

How the data were processed

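The authors deposited 1 table of raw counts, whole numbers without normalization, for 25277 gene symbols in 10 libraries. Trim Galore 0.5.0, HISAT2 2.1.0, featureCounts 1.6.4, DESeq2 and the build mm10 are named in the submitters' processing notes, while the annotation, the strand setting and the handling of multi-mapping reads are not stated there. Genotype and replicate number of each library were taken from the labels, and no 2 replicates agreed within sampling noise.

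The main test was the quasi-likelihood test of edgeR 4.0.16 in R 4.3.3, with TMM factors, the filterByExpr filter (13464 genes left) and genotype as its only term, fitted to all 10 libraries, two-sided, with Benjamini-Hochberg adjustment over all genes and a threshold of 0.05. The script was tested on simulated data. CPM are counts over TMM-adjusted totals, and log2 CPM used a prior count of 2. Lengths and coordinates came from GENCODE M21 on GRCm38, where 96.6% of the symbols were found. Reads carried no molecular identifiers, so errors of counting are underestimated by the counts alone.

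Alternatives were DESeq2 1.42.0, RLE size factors, limma 3.58.1 voom with quality weights, plain totals, totals without the 10 genes and Rn45s, no low-count filter, at least 10 CPM in 3 libraries, a replicate block, fits of only the 2 genotypes compared, genes detected as a term, an adjusted p under 0.1, the longest transcript as the length, leaving out each library, and leaving out flox/flox replicates 2 and 3. The class of a library by Xist against Y-linked counts, as a term or as a choice of libraries, was added after seeing the data. The 10 genes and the lists were chosen with earlier results of these data known. Of each list the 4 tested genes with the highest mean CPM were named, of each marker list the first 2, and as most like Sftpc or the mean of the 10 genes the 5 genes of at least 50 CPM with the lowest SD of the log2 ratio. Among the genes most like Sftpc, 1 is not reported here.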

Additional observations from a re-analysis of the deposited data

Results flagged for a closer look

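Within flox/+, the only genotype with 4 libraries, 67 sets of values were examined for a library far from the other 3, and 7 had one. For normally spread values chance gives about 1 such set in 20, a rate that need not hold for genes at or near 0 in most libraries, as Ramp2, Inmt, Xcr1 and Zbtb46 were. Among the genes of the report, the log2 ratio of Sftpa1 to Sftpc was -1.63 in flox/+ replicate 2, against -2.38 to -2.28 in the other 3, and this is the control with the least Sftpc. The ribosomal protein gene Rps27a stood at 846 CPM in flox/+ replicate 1, against 442 to 497 CPM in the others. In the same library the dendritic cell marker Zbtb46 stood at 17.4 CPM, against at most 0.111, and the lymphocyte markers summed to 16.3 CPM, against at most 1.63. In flox/+ replicate 2 the dendritic cell marker Xcr1 stood at 2.66 CPM, against at most 0.132, and the endothelial marker Ramp2 at 3.26 CPM, against 0 in the others. In flox/+ replicate 3 the fibroblast marker Inmt stood at 80.5 CPM, against at most 0.0543.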

How the results depend on the processing

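For flox/flox against flox/+, DESeq2 called 5 of the 10 genes and 1027 of 13464 genes in all. Without a low-count filter edgeR called 5 of the 10 and 196 of 20349 genes, with 1 of the 10 (Sftpb) higher at an unadjusted p under 0.05. Without that filter, 13.3% of all genes had such a p in either direction. Totals without the 10 genes and Rn45s called 3 genes, an adjusted p under 0.1 called 2, and leaving out flox/flox replicates 2 and 3 called 49, with a median over the 10 of -0.98. For flox/N211A against flox/+, DESeq2 called 17 genes, and no filter called 13 and 1 of the 10 (Sftpc). The median was -0.93 with the Xist class as a term and -0.85 in libraries with Xist above the Y-linked genes. For flox/N211A against flox/flox, DESeq2 called 671 genes, and no filter called 96 and 1 of the 10 (Cxcl15), with 1 lower and 4 higher at an unadjusted p under 0.05. That count of higher genes was 1 with only the 2 genotypes, 0 without flox/flox replicates 2 and 3, where 16 genes were called, and 1 in Xist-positive libraries, where 1 gene was called. That of lower genes was 1 with genes detected as a term. Of all genes, 9.58% had such a p in either direction with no filter and 7.75% with only the 2 genotypes. The share was 9.79% in Xist-positive libraries and 12.4% with genes detected as a term. The cause of these differences was not tested.

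Leaving out 1 library at a time gave, for flox/flox against flox/+, 0 to 399 genes called, 0 to 3 of the 10 called, 6 to 9 lower and 0 to 1 higher at an unadjusted p under 0.05, and medians of -1.92 to -1.37. It gave 0 to 3 lower and medians of -0.62 to -0.31 for flox/N211A against flox/+, with 0 called. For flox/N211A against flox/flox it gave 0 to 244 genes and 0 to 2 of the 10 called, 1 to 5 higher, 0 to 1 lower and medians of 0.72 to 0.89. The highest counts called were without flox/flox replicate 1. Of all genes, 11.3% to 22.9% had an unadjusted p under 0.05 in either direction for flox/flox against flox/+. The shares were 0.861% to 3.2% for flox/N211A against flox/+ and 6.68% to 22% for flox/N211A against flox/flox. The highest shares of the comparisons with flox/flox were also without flox/flox replicate 1.

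Directions turned in flox/N211A against flox/+ for Sftpb, to -8.20e-05 with totals without the 10 genes and Rn45s, -0.11 with the replicate block, -0.48 with genes detected, -0.51 with the Xist term and -0.26 in Xist-positive libraries, and for Abca3, to 0.19 with the replicate block, 0.18 with genes detected and 0.054 in Xist-positive libraries. For Lamp3 they turned to 0.010 with voom and 0.33 with genes detected, and for Cxcl15 to 0.030 with voom. Leaving out 1 library at a time gave ranges there of -0.51 to 0.41 for Sftpb, -0.22 to 0.11 for Abca3, -0.28 to 0.10 for Lamp3 and -0.57 to 0.25 for Cxcl15, and of -1.63 to 0.062 for Sftpb in flox/N211A against flox/flox, the last without flox/flox replicate 3. Without flox/flox replicates 2 and 3, which left replicate 1 alone in that genotype, Abca3 turned to 0.090 against flox/+. Sftpd, Lamp3 and Abca3 then turned to -0.072, -0.054 and -0.17 in flox/N211A against flox/flox.

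Same-numbered replicates showed little shared deviation, with 0 of 9 correlations over 0.1 (range -0.065 to 0.098). With so few libraries this cannot show whether equal numbers mark a shared animal or batch, and the labels do not say. The replicate block called 1 gene in flox/flox against flox/+ and 0 of the 10. The median of all genes moved too. In flox/flox against flox/+ it was 0.056, and -0.74 with voom, -0.61 without flox/flox replicates 2 and 3, -0.37 with genes detected, -0.34 with the replicate block, -0.22 with totals without the 10 genes and Rn45s and -0.17 with the Xist term. In flox/N211A against flox/flox it was -0.11, and 0.94 with voom, where the 10 genes had 0.95, 0.50 without those 2 libraries, 0.45 with the block, 0.18 with genes detected and 0.11 with plain totals. Of the 100 values of the 10 genes, 1 rests on fewer than 500 counts, the 24 counts of Lamp3 in flox/flox replicate 3.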
